A study of Rattus norvegicus with 102 samples.

Results

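Collagens are the main structural proteins of the extracellular matrix, and each is built from 3 chains that wind into a triple helix. Collagen genes were taken as every gene whose symbol reads Col, a number, the letter a and a number, and 44 of the 26284 genes listed for the Illumina libraries met this rule. The same 44 symbols, each with a single Ensembl identifier, were listed for the Ion Proton and the WT libraries. They were grouped into 8 classes by the kind of assembly that their chains form: 11 fibrillar genes, 6 of the basement membrane network (type IV), 6 of beaded filaments (type VI), 9 fibril-associated genes (FACIT), 3 of short-chain networks, 4 transmembrane genes, 2 multiplexins and 3 others.

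RNA came from CA1, CA3 and the dentate gyrus (DG) of 34 male rats of the inbred Fischer 344 strain (Fisher 344 in the labels), with no engineered allele or drug in any group. The young group (title suffix Y) held 10 rats of 5 to 6 months, and the old rats of 17 to 22 months were split by a water maze into 12 old unimpaired (OG) and 12 old impaired rats (OB). Every rat, young or old, had been trained in the maze, and the subfields were dissected pieces of hippocampus that hold neurons, glia and vessels. With 1 sample from each subfield of a rat there were 34 libraries per subfield. Poly-A RNA was read on an Illumina instrument and again on an Ion Proton, and this second run of the same RNA bears on technical error alone.

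In the brain, type IV collagens lie in the basement membrane that surrounds vessels and underlies the pia. Type I and III fibrils are made mainly by fibroblasts of the meninges and of large vessels, and type VI filaments connect basement membranes with the surrounding matrix. Col25a1 is a transmembrane collagen that neurons make. Values are given as normalised reads, that is, reads divided by a size factor per library, so that a level can be compared between libraries for 1 gene but not between genes of different length.

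Depth ran from 3.25 to 42.75 M reads per Illumina library (median 10.75 M) and from 4.47 to 21.43 M reads on the Ion Proton (median 9.74 M), and a value under 3 reads, or 0.919 to 12.738 normalised Illumina reads depending on the library, was taken as not detected. Marker genes of CA1 and CA3 pyramidal cells and of dentate granule cells ranked the subfields differently from the label in 25 libraries, of which 15 were CA3 libraries. Of the 25, 23 came from the 16 rats numbered from 9000 on, and 2 from the 18 rats with lower numbers, so subfield results of collagen genes are also given within each number series. All 15 CA3 libraries were among the 16 of the rats from 9000, and CA3 values of that series are those of libraries labelled CA3 whose markers mostly ranked another subfield highest. The study's design names 2 colonies, and its methods pair them with the 2 sites that tested the rats. Their numbers of young and aged rats are the same as those of the number series. No label ties a rat number to a colony or site, so what a split by series separates was not tested. The CA3 library of the young rat R9876 held far more RNA of the meninges than the other 33 CA3 libraries, with 15 of 16 leptomeninges markers above all of them, and 7 further libraries (5 of CA1, 2 of CA3) were high in markers of meninges or choroid plexus. Counts of called collagen genes are given with and without these libraries. Those of the other gene lists, such as vessel markers, are given over all libraries only. In bulk tissue fewer cells of a type and less RNA per cell cannot be told apart.

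Of the 44 collagen genes, 34 had a mean of at least 10 normalised reads over all libraries in both poly-A tables and were tested between subfields. These were all 11 fibrillar genes, all 6 of type IV, 5 of 6 of beaded filaments, 7 of 9 FACIT genes, 2 of 3 short-chain genes, and 1 each of the transmembrane, multiplexin and other classes. The 10 genes under this level were Col6a4, Col9a1, Col10a1, Col13a1, Col15a1, Col17a1, Col22a1, Col23a1, Col26a1 and Col28a1. Col23a1 had a mean of 0.013 on the Illumina, where 100 libraries listed it at 0, and a mean of 14.2 on the Ion Proton, and Col4a4 had a mean of 12.5 on the Illumina and 174 on the Ion Proton. The same RNA thus gave different values for these genes on the platforms. Within its class, and without correction for gene length, the most Illumina reads on average fell on Col11a2 (3790 normalised reads), Col4a2 (1009), Col6a1 (861), Col16a1 (1126), Col8a2 (30.2), Col25a1 (696), Col18a1 (305) and Col7a1 (95.3).

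The first question was whether the subfields of 1 hippocampus differ in their collagen genes. DG stood apart from both pyramidal subfields in 11 collagen genes each, and CA1 and CA3 differed in 5. A gene was called when limma gave a Benjamini-Hochberg adjusted p under 0.05 in both poly-A tables with 1 direction. Between CA1 and DG 11 of 34 tested collagen genes (32.4%) were called, 3 higher in CA1 and 8 higher in DG, where 26.9% of all 13907 genes tested were called. Between CA3 and DG the count was also 11 (32.4%), 7 higher in CA3 and 4 higher in DG, beside 28.5% of all genes. Between CA1 and CA3 all 5 called genes (14.7%) were lower in CA1, beside 14.4% of all genes. The shares of collagen genes were near those of all genes, so the family as a whole did not stand out. The median log2 difference over the 34 genes was -0.05 for CA1 minus CA3, 0.19 for CA1 minus DG and 0.20 for CA3 minus DG, while that of all genes was 0.01 or less in size.

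**Figure D1:**
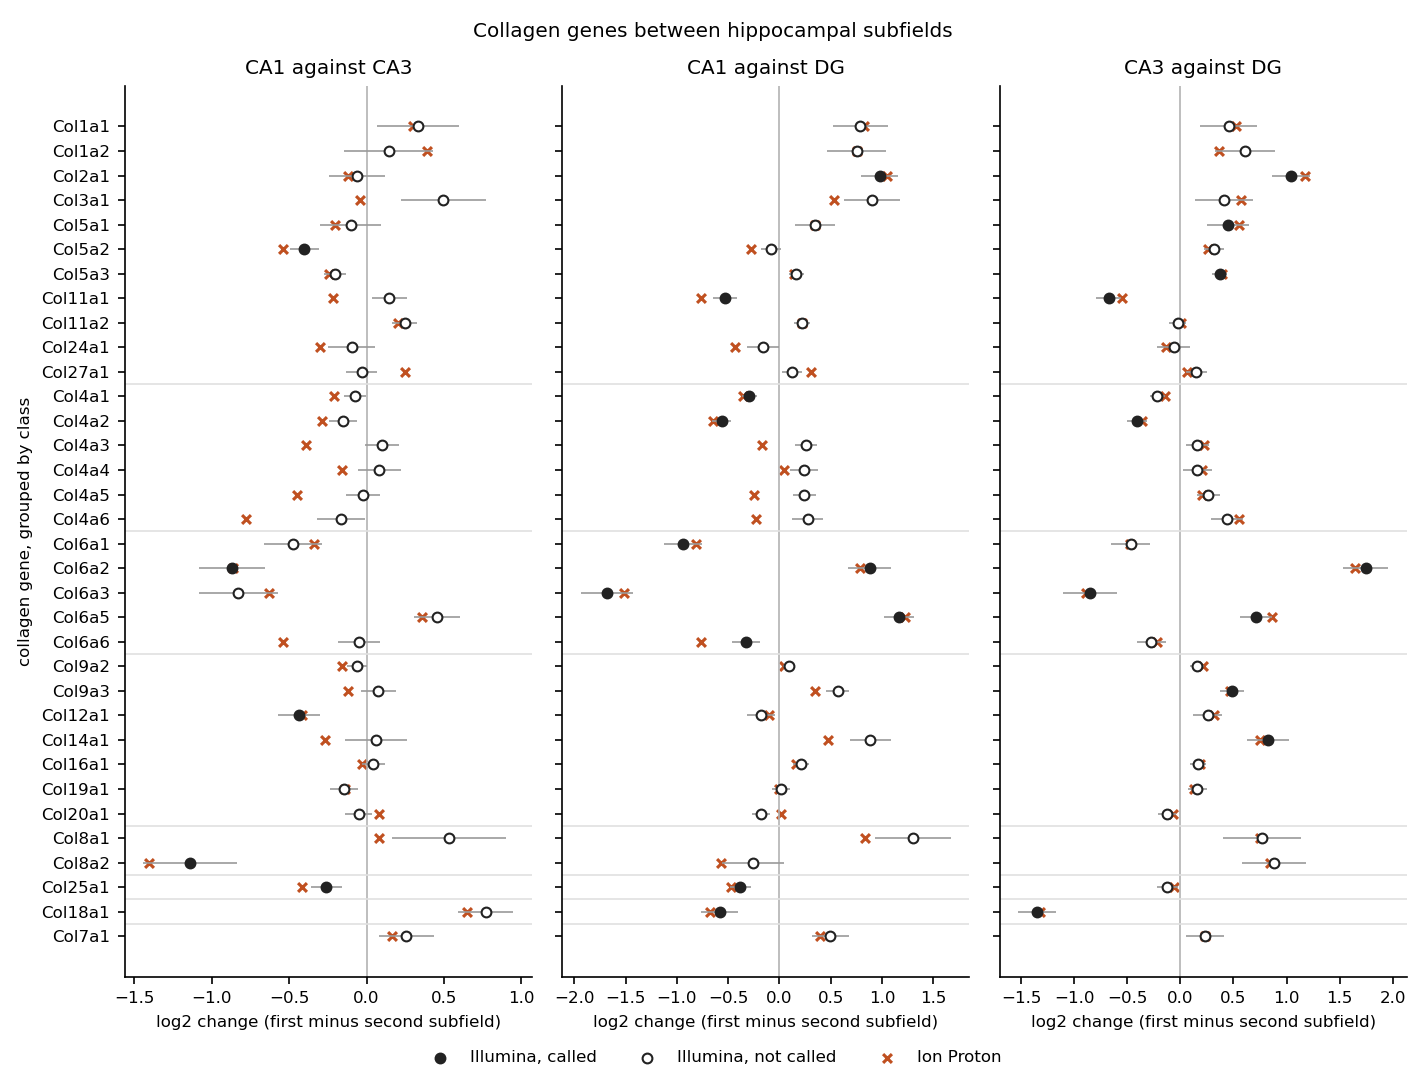
Log2 differences of the 34 tested collagen genes between subfields (x axis, first minus second subfield, 34 libraries each), with the genes on the y axis grouped by class. Circles are Illumina values with their standard errors (filled where called), and crosses are Ion Proton values; Col6a2 lies to the right of 0 and Col6a3 to the left in both comparisons with DG.

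The type VI chains showed opposite orders across the subfields. The alpha 1, alpha 2 and alpha 3 chains, encoded by Col6a1, Col6a2 and Col6a3, form the classical type VI monomer. Col6a2 read 116, 305 and 1025 normalised reads (lowest, median and highest of 34 libraries) in CA1, 89.8, 641 and 2400 in CA3, and, in the DG libraries, 60.8, 140 and 632. Its ranges overlapped, but within a rat CA3 exceeded DG in 33 of 34 rats and was the highest of the subfields in 27. The difference was 1.75 ± 0.21 on the log2 scale (± SE throughout) for CA3 minus DG (limma adjusted p = 1.59e-11), 0.88 ± 0.21 for CA1 minus DG (adjusted p = 0.000273) and -0.87 ± 0.21 for CA1 minus CA3 (adjusted p = 0.000562).

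Col6a3 had the reverse order between DG and the other subfields. Its lowest, median and highest values were 4.30, 28.3 and 191 normalised reads in CA1, 5.99, 56.1 and 590 in CA3, and, in the DG libraries, 15.9, 103 and 206, and the 590 was the library of R9876. DG was highest in 26 of 34 rats. Col6a3 differed by -1.68 ± 0.25 (log2) between CA1 and DG (limma adjusted p = 2.37e-08) and by -0.85 ± 0.25 between CA3 and DG (adjusted p = 0.00288). Col6a1 read 244, 531 and 1234 normalised reads in CA1, 76.9, 810 and 2247 in CA3, and, in the DG libraries, 353, 1090.2 and 2221.3. It was lower in CA1 than in DG by -0.94 ± 0.19 (limma adjusted p = 1.08e-05), and its CA3 minus DG difference of -0.47 ± 0.19 passed on the Illumina alone (adjusted p = 0.0262, Ion Proton 0.0782). Col6a2 was thus lowest in DG, where both partner chains had their highest medians over all rats. In the rats from 9000 alone the Col6a1 median was higher in CA3 (971 normalised reads) than in DG (752), and in those below 9000 it was 592 and 1247. Col6a1 was called between CA3 and DG on both platforms in the rats below 9000 and without the libraries of disagreeing markers. Between CA1 and CA3 it was called with edgeR, with DESeq2, with the WT table and in the rats from 9000. The call of Col6a2 between CA1 and CA3 was lost in the rats below 9000 (-0.49) and without the libraries of disagreeing markers (-0.74).

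**Figure D2:**
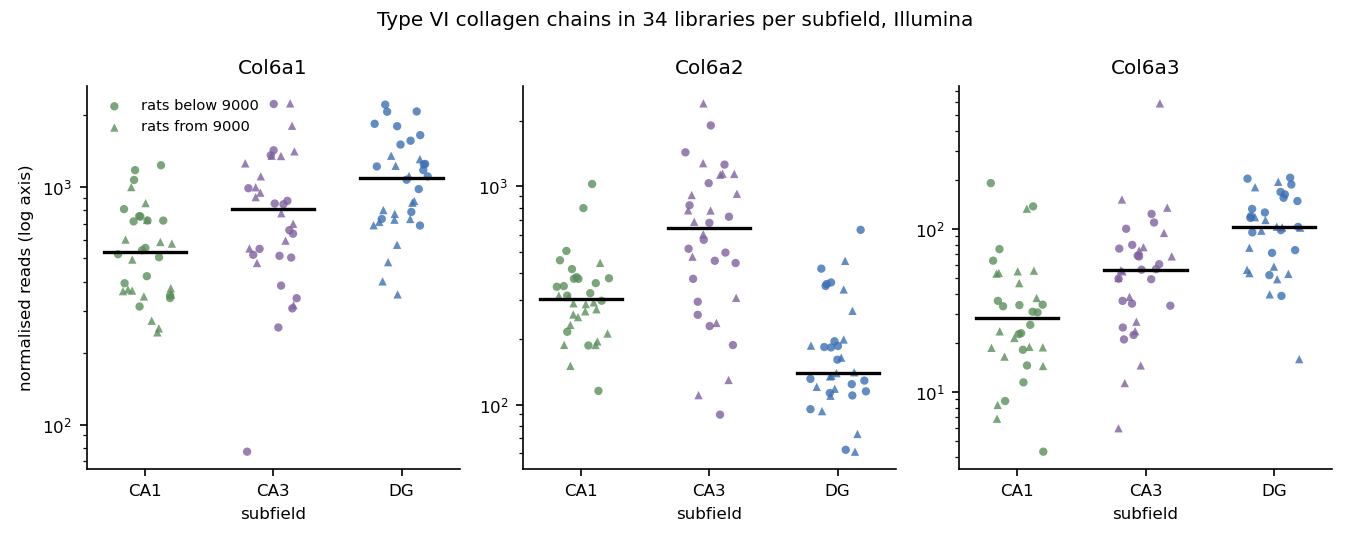
Normalised Illumina reads (log y axis) of Col6a1, Col6a2 and Col6a3 in 34 libraries per subfield (x axis), with bars at the medians and markers by rat number series. The DG median is the highest of the subfields for Col6a1 and Col6a3 and the lowest for Col6a2 (140), but in the rats from 9000 the Col6a1 median is higher in CA3 (971) than in DG (752).

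Col6a5 and Col6a6 encode further alpha chains related to alpha 3. Col6a5 followed Col6a2 in being lowest in DG, with 13.1, 35.7 and 62.3 normalised reads in CA1, 5.73, 25.2 and 45.3 in CA3, and, in the DG libraries, 4.17, 15.0 and 38.6, and was highest in CA1 in 24 of 34 rats. It differed by 1.17 ± 0.15 (log2) between CA1 and DG (limma adjusted p = 1.47e-10) and by 0.71 ± 0.15 between CA3 and DG (adjusted p = 2.98e-05), with 0.94 below and 0.45 from 9000. The latter call was lost from 9000, with a pseudocount of 0.1 and with the WT table. Col6a6 was lower in CA1 than in DG by -0.32 ± 0.14 (limma adjusted p = 0.0361), and its ranges of 7.17 to 43.3 and 14.0 to 45.6 normalised reads overlapped almost fully. All 5 tested type VI genes were called between CA1 and DG, 2 higher and 3 lower in CA1. Of these calls that of Col6a6 was lost with edgeR, DESeq2, no filter or the WT table, that of Col6a5 with the WT table and in the rats from 9000, and that of Col6a2 in the rats below 9000. Within the rats numbered below 9000 and from 9000 the CA3 minus DG difference of Col6a2 was 1.48 and 2.05, that of Col6a3 -1.11 and -0.56, and the CA1 minus DG difference of Col6a1 -1.10 and -0.76 on the log2 scale. Leaving out the CA3 library of R9876 gave 1.69 for Col6a2 and -0.96 for Col6a3 between CA3 and DG, and both stayed called. With edgeR, with DESeq2 and in the rats from 9000 the CA3 minus DG call of Col6a3 was lost. Without the 25 libraries of disagreeing markers the CA3 minus DG value of Col6a3 was -0.72 and its call was lost, and Col6a2 (1.91) kept its call. The CA1 minus DG value of Col6a6 was -0.64 in the rats below 9000 and 0.04 in those from 9000.

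Among the type IV genes, the vessel pair was higher in DG than in CA1. Col4a1 and Col4a2 encode the 2 chains of the basement membrane of most vessels, and the genes lie head to head, with starts 77 bases apart on opposite strands in the RefSeq annotation of GRCr8. The sequence between these starts (chr16:84885521-84885596, plus strand, from the Col4a2 side to the Col4a1 side) is shown because it serves both genes as upstream sequence; the capitals mark a GC box, searched as GGGCGG or CCGCCC on both strands.

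Col4a2-Col4a1 interval: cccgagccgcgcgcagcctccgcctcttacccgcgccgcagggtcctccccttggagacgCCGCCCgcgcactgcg

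The interval held 1 GC box and neither a CCAAT box (CCAAT or ATTGG) nor a TATA box (TATAAA or TTTATA), and of 33469 rat promoters cut to the same 76 bases 18.1% held a GC box, 13.0% a CCAAT box and 4.6% a TATA box. A match of letters does not show binding. Col4a2 read 436, 823 and 1224 normalised reads in CA1, 476, 886 and 1565 in CA3, and, in the DG libraries, 571, 1226 and 2152, and DG was highest in 31 of 34 rats. It differed by -0.56 ± 0.09 (log2) between CA1 and DG (limma adjusted p = 2.31e-07) and by -0.41 ± 0.09 between CA3 and DG (adjusted p = 9.47e-05). On the Ion Proton DG was highest in 21 rats for Col4a2 and in 17 for Col4a1. On the Illumina Col4a1 was highest in DG in 26 of 34 rats and lower in CA1 than in DG by -0.29 ± 0.07 (limma adjusted p = 0.000257). The CA1 minus DG difference of Col4a2 was -0.65 in the rats below 9000 and -0.46 in those from 9000. Its CA3 minus DG call was lost without the libraries of disagreeing markers, at -0.17, and in the rats below 9000, at -0.28. In both of these settings Col4a2 was called between CA1 and CA3. Col4a1 was not called between CA3 and DG.

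Between CA1 and DG, markers of vessel cells differed in the other direction. Beside 26.9% of all genes called between CA1 and DG, with 1864 higher and 1875 lower in CA1, 6 of 11 endothelial markers were higher in CA1 and none was lower (median log2 difference 0.45), and of 7 mural markers 4 were higher and none lower (median 0.52). Between CA3 and DG, beside 28.5% of all genes, 2 of 11 endothelial and 1 of 7 mural markers were higher in CA3 (median 0.23 for both lists). Of 16 genes for laminins, nidogens and other partners of type IV collagen in basement membranes, 11 were higher in CA1 than in DG and none was lower (median 0.57), among them Lama3 (1.30 ± 0.13), a laminin chain. The higher Col4a1 and Col4a2 values in DG than in CA1 thus stood beside lower values of vessel markers in DG, whose part was not tested. The chains found in specialised basement membranes, Col4a3 to Col4a6, were called by limma in none of the 3 subfield comparisons, while Col4a6 was called between CA3 and DG with edgeR, DESeq2 or the WT table, and Col4a3 between CA1 and DG with the WT table. Col4a5 differed by -0.02 ± 0.11 between CA1 and CA3, 0.24 ± 0.11 between CA1 and DG and 0.26 ± 0.11 between CA3 and DG on the log2 scale, with Ion Proton values of -0.45, -0.25 and 0.20.

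Of the fibrillar genes, the 2 with called differences from DG in both pyramidal subfields went in opposite directions. Col2a1, the chain of cartilage type II fibrils, read 4.89, 21.8 and 42.2 normalised reads in CA1, 8.05, 24.0 and 64.9 in CA3, and, in the DG libraries, 3.04, 9.47 and 52.7. It was above DG in 32 of 34 rats in CA1 and in 30 in CA3, by 0.98 ± 0.18 and 1.04 ± 0.18 (limma adjusted p = 2.8e-06 and 6.07e-07). Col11a1, a minor fibril chain that limits fibril width, read 111, 199 and 361 in CA1 libraries, 83.8, 185 and 442 in those of CA3, and 142, 304 and 513 in DG. It was highest in DG in 27 of 34 rats and lower in CA1 and CA3 by -0.53 ± 0.12 and -0.68 ± 0.12 (limma adjusted p = 6.27e-05 and 4.29e-07). Within the number series below and from 9000, the CA1 minus DG difference was 1.05 and 0.90 for Col2a1 and -0.60 and -0.45 for Col11a1, and the CA3 minus DG difference was 1.35 and 0.70 for Col2a1 and -0.85 and -0.48 for Col11a1. The CA3 minus DG call of Col11a1 was lost in the rats below 9000 and without the libraries of disagreeing markers. Col2a1 lost both calls with the WT table, its CA1 minus DG call below 9000 and its CA3 minus DG call from 9000. Over all libraries the partner chain gene Col11a2 was called in none of the comparisons, with CA1 minus DG at 0.22 ± 0.08 (adjusted p = 0.0163, Ion Proton 0.215). In the rats from 9000 Col11a2 was called between CA1 and DG.

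The type V genes, whose chains start and size collagen fibrils, had their highest medians in CA3 over all rats, but Col5a1 in the rats below 9000 had its lowest median there (317, beside 497 in CA1 and 390.1 in DG). Col5a2 read 371, 672 and 1025 normalised reads in CA1, 369, 917 and 1501 in CA3, and, in the DG libraries, 429, 729.5 and 1060.0, and CA3 was highest in 28 of 34 rats (20 on the Ion Proton). CA1 was lower than CA3 by -0.40 ± 0.09 (limma adjusted p = 0.000267), with -0.46 and -0.34 in the number series below and from 9000, and the call was lost in the latter. Col5a3 was higher in CA3 than in DG by 0.37 ± 0.07 (limma adjusted p = 5.63e-06), with 0.38 below and 0.36 from 9000, and the call was lost below 9000 (Ion Proton adjusted p = 0.117). The call of Col5a1 between CA3 and DG (0.45 ± 0.20, limma adjusted p = 0.046) was lost without R9876 (0.39), with a pseudocount of 0.1, without a filter and without the libraries of disagreeing markers, and the value was -0.42 in the rats below 9000 and 1.43 in those from 9000. The type I and III genes Col1a1, Col1a2 and Col3a1 passed between CA1 and DG on the Illumina alone, at 0.79 ± 0.27, 0.75 ± 0.29 and 0.90 ± 0.27, and without R9876 Col1a2 was called there as well. With the rat as a block Col1a1, Col1a2 and the FACIT gene Col9a3 were called between CA1 and DG, and edgeR called Col1a1, Col1a2 and Col3a1 there and between CA3 and DG.

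Among the smaller classes, Col18a1 differed most over all rats. It encodes the multiplexin whose C-terminal fragment is endostatin, and it read 76.2, 277 and 925 normalised reads in CA1, 60.6, 140 and 1415 in CA3, and, in the DG libraries, 87.8, 414 and 972. Its highest CA3 value was that of R9876, and the next was 492.5. CA3 was below DG by -1.35 ± 0.18 (limma adjusted p = 4.28e-10) and CA1 by -0.58 ± 0.18 (adjusted p = 0.00431). Without R9876 the CA1 minus CA3 difference of 0.87 was called too, where the value with it (0.77 ± 0.18) had missed the threshold on the Ion Proton (adjusted p = 0.0856). The CA3 minus DG value was -1.84 in the rats below 9000 and -0.80 in those from 9000, where its call was lost. The CA1 minus DG call was lost in both series (-0.65 and -0.50), with a pseudocount of 0.1 and without a filter on low values.

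Col25a1, a neuronal transmembrane collagen, was lowest in CA1. It read 222, 626 and 794 normalised reads there, 239, 788 and 1148 in CA3 and 305, 769 and 939.6 in DG, and CA1 was the highest subfield in 1 of 34 rats. The differences were -0.26 ± 0.10 from CA3 and -0.38 ± 0.10 from DG (limma adjusted p = 0.0393 and 0.00105), and the former was -0.44 in the rats below 9000 and -0.05 in those from 9000. The call from CA3 was lost in the latter, without a filter on low values and without the libraries high in neighbouring tissue. Col8a2, a short-chain collagen of Descemet's membrane in the eye, read 1.09, 10.0 and 294 in CA1 and 4.49, 24.4 and 167 in CA3. CA1 was lower by -1.14 ± 0.30 (limma adjusted p = 0.00166), with -1.93 and -0.25 in the 2 number series, and its ranges overlapped. The call was lost from 9000 and under both count models, where the difference was -0.56 with edgeR and -0.44 with DESeq2. Among the FACIT genes, which coat fibrils, Col12a1 was lower in CA1 than in CA3 (-0.43 ± 0.14, limma adjusted p = 0.00802), and Col14a1 (0.82 ± 0.20, adjusted p = 0.000275) and Col9a3 (0.49 ± 0.11, adjusted p = 0.000129) were higher in CA3 than in DG. Without R9876 the calls of Col12a1 (-0.38) and Col14a1 (0.75) were lost, as both were without a filter on low values and without the libraries of disagreeing markers, and Col12a1 with the WT table. Col12a1 read 0.06 in the rats below 9000 and -0.99 in those from 9000, and Col9a3 0.94 and -0.02; the calls of Col12a1 below 9000 and of Col9a3 and Col14a1 from 9000 were lost. Col16a1 and Col7a1, the members with the most reads of their classes, were called by limma in no subfield comparison, and Col7a1 was called between CA1 and DG with DESeq2 and with the WT table.

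Counts of called collagen genes without R9876 were 5 between CA1 and CA3, 12 between CA1 and DG and 9 between CA3 and DG. Within the rats below and from 9000, 3 and 2 of the 5 calls between CA1 and CA3 held, 8 and 8 of the 11 between CA1 and DG, and 7 and 5 of the 11 between CA3 and DG. Other genes were called there: between CA1 and CA3 Col4a2 and Col9a3 below 9000, and Col5a1 and Col6a1 from 9000. Between CA1 and DG these were Col11a2, Col5a3 and Col9a3 from 9000 and none below. Between CA3 and DG they were Col5a2, Col6a1 and Col8a2 below 9000, and Col12a1, Col25a1 and Col27a1 from 9000. Col5a3 was called between CA1 and CA3 with edgeR, with DESeq2 and with the rat as a block. Without all 8 libraries high in meninges or choroid plexus markers the counts were also 5, 12 and 9. With the rat as a block they were 6, 14 and 12, and all genes called without the block were among them.

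The second question was whether collagen genes differ between aged and young rats. By limma on all libraries, Col11a1 and Col4a5 were lower in the 24 aged than in the 10 young rats in each subfield, and no other collagen gene was called. In CA3 Col4a5 was not called without R9876, and neither gene was called there without the libraries high in meninges or choroid plexus markers. A gene was called here when limma gave p under 0.01 on the Illumina and a one-sided p under 0.05 in the same direction on the Ion Proton. In CA1, CA3 and DG, 34, 34 and 31 collagen genes were tested and 2, 2 and 2 were called (5.88, 5.88 and 6.45%), beside 0.851, 0.402 and 1.09% of all genes tested. No collagen gene had an adjusted p under 0.05 in any subfield, and 3, 4 and 4 had an unadjusted p under 0.05. Of all 13868, 13942 and 13728 genes tested, 45, 0 and 41 had an adjusted p under 0.05 and 852, 464 and 711 an unadjusted p under 0.05.

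**Figure D3:**
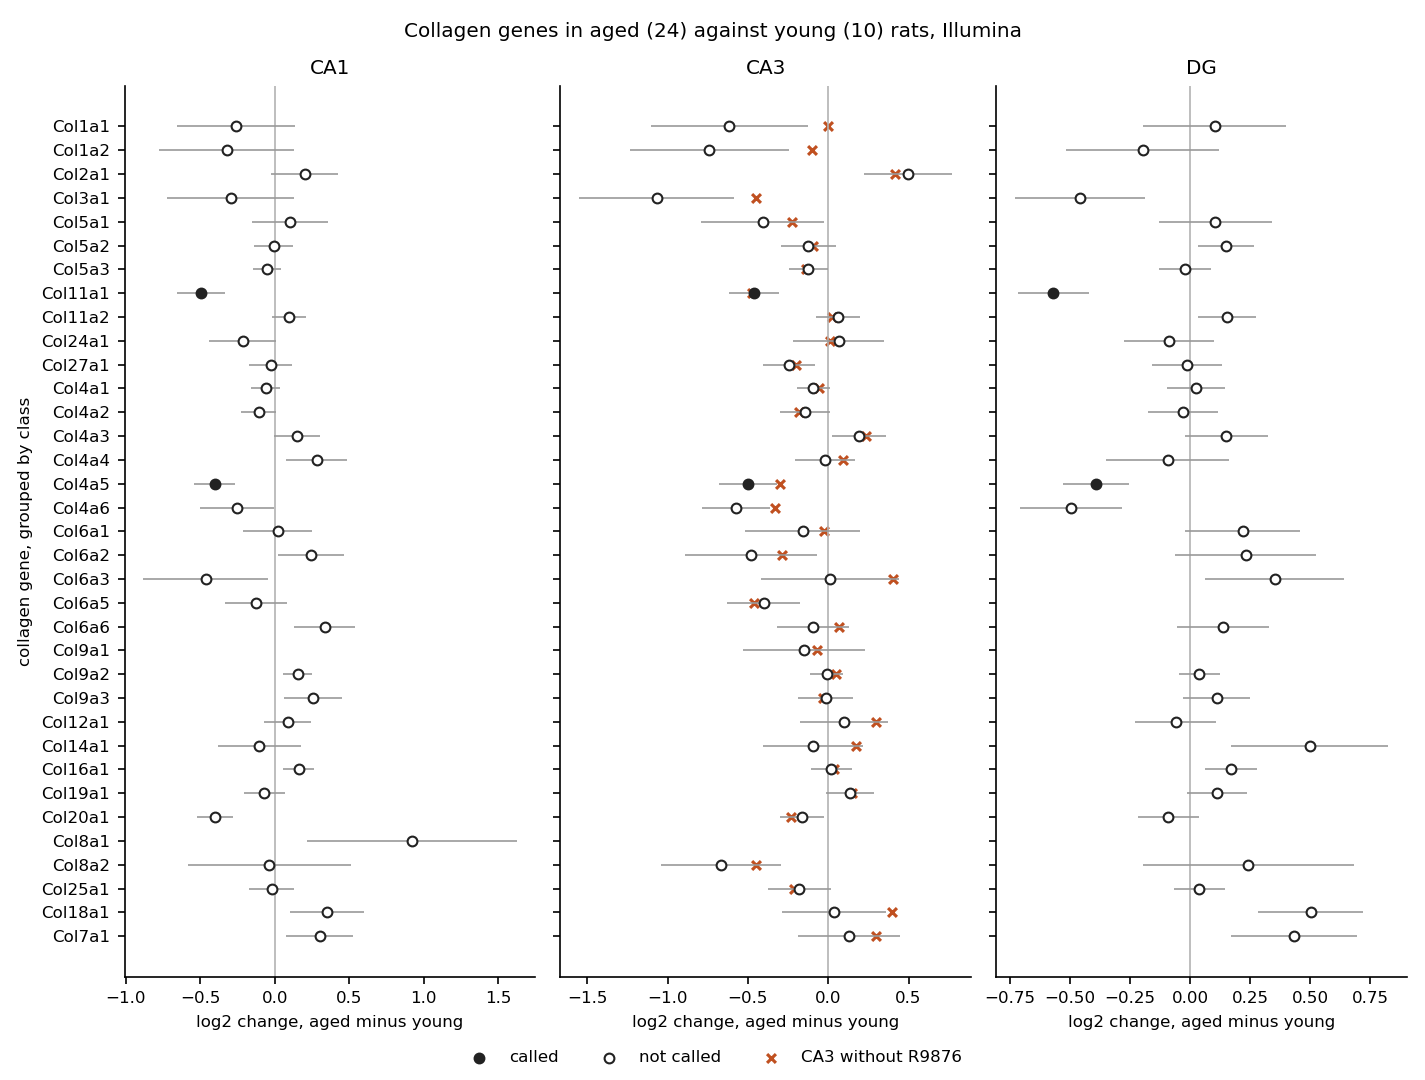
Log2 differences of collagen genes in 24 aged against 10 young rats by subfield (x axis, Illumina, bars are standard errors; y axis, genes grouped by class). Filled circles are called genes and crosses the CA3 values without R9876; Col11a1 and Col4a5 are filled and left of 0 in every panel, and without R9876 the CA3 value of Col4a5 moves to -0.30.

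Col11a1 lies on chromosome 2. Its 250 bases upstream of the annotated start (GRCr8, chr2:204508886-204509135, plus strand, RefSeq) are shown beside those of Col4a5 on chromosome X (GRCr8, chrX:109907109-109907358, plus strand) because these genes shared the lower level in each subfield; 35 of the 44 collagen genes had an entry in the promoter table, and the capitals mark GC, CCAAT and TATA boxes on either strand.

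Col11a1: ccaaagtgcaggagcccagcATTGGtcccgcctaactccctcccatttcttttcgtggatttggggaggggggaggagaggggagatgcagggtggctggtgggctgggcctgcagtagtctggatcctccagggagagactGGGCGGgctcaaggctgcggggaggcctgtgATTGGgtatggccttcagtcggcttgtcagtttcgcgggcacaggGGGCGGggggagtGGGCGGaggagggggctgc
Col4a5: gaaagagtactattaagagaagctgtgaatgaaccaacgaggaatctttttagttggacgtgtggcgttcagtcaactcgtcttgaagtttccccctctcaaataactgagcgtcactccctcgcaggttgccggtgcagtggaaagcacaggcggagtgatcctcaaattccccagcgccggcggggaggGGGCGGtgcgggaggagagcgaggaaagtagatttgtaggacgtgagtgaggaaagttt

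The Col11a1 window held 3 GC boxes, 2 CCAAT boxes and no TATA box, and the Col4a5 window held 1 GC box alone. Among 33469 rat promoters of this length 30.5% held a GC box, 34% a CCAAT box and 12.9% a TATA box, so the GC box that both windows share is a common feature.

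In CA1, Col11a1 read 156, 303 and 361 normalised reads (lowest, median, highest) in young rats, 132, 186 and 323 in old unimpaired and 111, 184 and 280.3 in old impaired rats. In CA3 the values were 179, 215 and 442 in young, 83.8, 162 and 268 in old unimpaired and 100.6, 191 and 270.2 in old impaired rats. In DG they were 304, 385 and 513 in young, 143, 268 and 418 in old unimpaired and 142, 281 and 461 in old impaired rats. The groups overlapped, but 22, 18 and 20 of 24 aged rats lay below the young median in CA1, CA3 and DG, and in DG 17 of 24 lay below the lowest young rat. The young means were 278 ± 82.3, 245 ± 80.1 and 403 ± 69.2 normalised reads in CA1, CA3 and DG, and the aged means were 196 ± 58.0, 178 ± 52.4 and 281 ± 88.0 (± SD, n = 10 and 24).

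On the log2 scale Col11a1 was lower in aged rats by -0.49 ± 0.16 in CA1 (limma p = 0.00363, adjusted p = 0.301), -0.46 ± 0.16 in CA3 (p = 0.00548, adjusted p = 0.878) and -0.57 ± 0.15 in DG (p = 0.000505, adjusted p = 0.0934). The aged level was 0.71, 0.73 and 0.67 of the young level. On the Ion Proton the differences were -0.74, -0.48 and -0.91 (one-sided limma p = 0.000239, 0.0105 and 7.2e-05). In CA1 the difference was -0.54 in the rats below 9000 and -0.47 in those from 9000. The same split gave -0.56 and -0.37 for CA3 and -0.32 and -0.87 for DG, and Col11a1 was called in CA3 below 9000 and in DG from 9000 alone. Leaving out 1 library at a time gave -0.58 to -0.45 in CA1, where the call was lost without R2176 or R2221, and -0.51 to -0.36 in CA3, where it was lost without R2176, R2221 or R9881. All 3 are young rats, and R2221, whose CA3 library read 442, was high in choroid plexus markers there. In DG no single library ended the call. Without the libraries high in meninges or choroid plexus markers the values were -0.39 in CA1 (limma p = 0.0273) and -0.35 in CA3 (p = 0.039), and both calls were lost. No DG library was high in these markers.

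Col4a5 encodes the alpha 5 chain of type IV collagen, which is shared by the networks of the glomerulus and of smooth muscle and is the gene of X-linked Alport syndrome. In CA1 it read 58.3, 77.5 and 122 normalised reads in young, 45.8, 56.2 and 89.2 in old unimpaired and 38.9, 65.9 and 142 in old impaired rats. In CA3 the values were 51.7, 75.3 and 318 in young, 39.3, 62.4 and 97.1 in old unimpaired and 45.9, 59.4 and 96.0 in old impaired rats, and in DG 46.2, 69.7 and 116, 34.1, 51.6 and 95.8, and 46.6, 52.9 and 83.8. The groups overlapped in each subfield, with 21, 16 and 21 of 24 aged rats below the young median in CA1, CA3 and DG. The 318 in CA3 was the library of R9876, and the next young library read 118.

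The aged minus young difference of Col4a5 was -0.40 ± 0.14 in CA1 (limma p = 0.00624, adjusted p = 0.408), -0.50 ± 0.18 in CA3 (p = 0.00827, adjusted p = 0.999) and -0.39 ± 0.14 in DG (p = 0.0074, adjusted p = 0.480). The Ion Proton values were -0.90, -0.61 and -0.41 (one-sided limma p = 0.0245, 0.0108 and 0.0307). Without R9876 the CA3 difference was -0.30 ± 0.14 (limma p = 0.0388) and the gene was no longer called there. Split by number series, CA1 gave -0.45 below and -0.35 from 9000, CA3 -0.34 and -0.65, and DG -0.23 and -0.54, and Col4a5 was called in neither series. The CA1 call was lost with edgeR (p = 0.0101), without the deeply sequenced rats (-0.46, where it missed the Ion Proton threshold) and with the WT table, and the CA1 call in old unimpaired rats was lost with edgeR too. Without the libraries high in meninges or choroid plexus markers CA1 gave -0.48 (limma p = 0.00013, adjusted p = 0.0461), and with the number series as a covariate Col11a1 in DG gave -0.59 (adjusted p = 0.0113). Leaving out 1 library at a time ended the call of Col4a5 in 4 of 34 cases in CA1 (R2175, R2176, R9877 and R9879, all young), 15 in CA3 and 10 in DG, with differences between -0.46 and -0.35, -0.59 and -0.30, and -0.46 and -0.31.

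**Figure D4:**
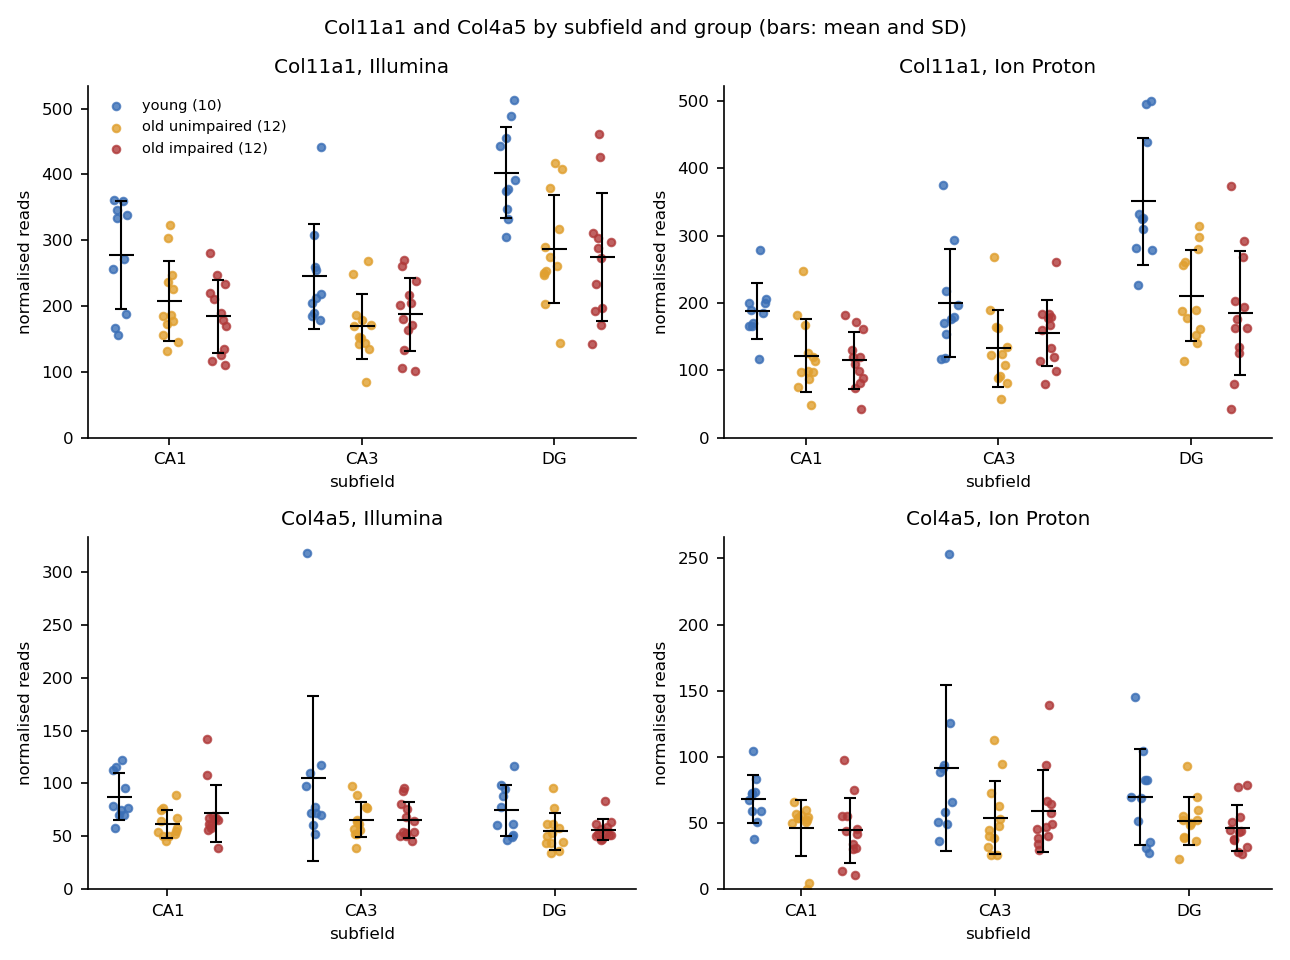
Normalised reads of Col11a1 (top) and Col4a5 (bottom) per library on the Illumina (left) and Ion Proton (right), by subfield (x axis) and group, with mean and SD. Young rats lie higher on average in every panel and subfield, the groups overlap, and the CA3 library of R9876 is the top young point of Col4a5 in CA3 (318 on the Illumina and 253 on the Ion Proton).

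The samples of the subfields came from the same rats. Col11a1 was below the young median in all 3 subfields in 13 of 24 aged rats on the Illumina and in 15 on the Ion Proton, and Col4a5 in 14 and 16. Tested on within-rat differences, the age difference of no collagen gene differed between subfields (38, 37 and 36 genes tested, 0 with an adjusted and 0 with an unadjusted limma p under 0.05). Of all 14224, 14130 and 14150 genes tested, 0 had an adjusted p under 0.05 either, and 369, 128 and 226 had an unadjusted p under 0.05. For Col11a1 the age difference in CA1 minus that in CA3 was -0.03 ± 0.19, in CA1 minus DG 0.07 ± 0.20 and in CA3 minus DG 0.11 ± 0.22, and for Col4a5 the values were 0.10 ± 0.21, -0.01 ± 0.17 and -0.11 ± 0.18 on the log2 scale.

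Over all tested collagen genes, 19 of 34 had a negative age difference in CA1 (median log2 difference -0.025). The count was 24 of 34 in CA3 (median -0.125) and 12 of 31 in DG (median 0.103), while the median of all genes was within 0.02 of 0 in each. In CA3 the fibrillar median was -0.245, and without R9876 it was -0.102, with 20 of 34 genes negative. Col3a1 was at -1.07 in CA3 (limma p = 0.033) and at -0.45 without R9876 (p = 0.174), and 13 leptomeninges markers had a median of -0.37 in this comparison and 8 choroid plexus markers -0.61, with none called; R9876 is a young rat. Col4a6, whose gene lies head to head with Col4a5, was at -0.57 in CA3 (p = 0.0103), or -0.33 without R9876 (p = 0.0492), and -0.50 in DG (p = 0.0253). Col20a1, a FACIT, was at -0.40 in CA1 (p = 0.00215) without passing on the Ion Proton (one-sided p = 0.0939), and Col18a1 at 0.50 in DG (p = 0.0268). For Col6a6 the age difference was 0.33 ± 0.20 in CA1 (Ion Proton -0.71), -0.10 ± 0.23 in CA3 and 0.14 ± 0.19 in DG.

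By limma on all libraries, none of the members with the most reads of their classes was called with age. In CA1, CA3 and DG, Col11a2 read 0.10, 0.06 and 0.15 on the log2 scale, Col4a2 -0.11, -0.15 and -0.03, and Col6a1 0.02, -0.16 and 0.22. Col16a1 read 0.16, 0.02 and 0.17, Col25a1 -0.02, -0.18 and 0.04, and Col7a1 0.30, 0.13 and 0.43. Col18a1 read 0.35, 0.04 and 0.50, and in DG 12 of 24 aged rats lay above the highest young rat on the Illumina and 5 on the Ion Proton. Col18a1 in DG was called higher with DESeq2, without the deeply sequenced rats and when R9781 was left out. For Col7a1, 14 of 24 did so in CA1, where the Ion Proton difference was -0.04. Col8a2 read -0.04, -0.67 and 0.24, with standard errors of 0.55, 0.37 and 0.44.

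The age comparison was then split by maze group, with the same 10 young rats on both sides. In old unimpaired rats, Col4a5 was lower in CA1 (-0.49 ± 0.13, limma p = 0.00129), Col11a1 in CA3 (-0.53 ± 0.17, p = 0.00451) and DG (-0.52 ± 0.14, p = 0.0013), and Col18a1 was higher in DG (0.66 ± 0.21, p = 0.00392). Col18a1 in DG read 206, 303 and 474 normalised reads in young, 202, 511 and 972 in old unimpaired and 87.8, 427 and 603 in old impaired rats. These were 1, 1 and 2 called genes in CA1, CA3 and DG, beside 0.621, 0.394 and 0.635% of all genes. In old impaired rats Col11a1 was lower in CA1 (-0.58 ± 0.18, limma p = 0.00405) and DG (-0.61 ± 0.16, p = 0.00101), and no collagen gene was called in CA3 (3 with edgeR, or 1 when R9876 was left out), beside 1.23, 0.28 and 0.968% of all genes in CA1, CA3 and DG. In CA3 Col11a1 read -0.40 ± 0.18 (p = 0.0352) in old impaired rats, near the value of the old unimpaired, and 3 collagen genes had an unadjusted p under 0.05 there, beside 343 of all 13929 genes. Without the libraries high in meninges or choroid plexus markers, the old impaired CA1 call passed from Col11a1 (-0.48, limma p = 0.0229) to Col4a5 (-0.45, p = 0.00282), and the old unimpaired CA3 call of Col11a1 was lost.

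Old impaired and old unimpaired rats were compared directly as well. No collagen gene was called in CA1, CA3 or DG by limma, beside 0.635, 0.0216 and 0.124% of all genes, and 2, 0 and 0 collagen genes had an unadjusted p under 0.05. Of all genes 796 of 13867, 190 of 13906 and 528 of 13713 did so. The 2 collagen genes were Col12a1 at 0.35 (p = 0.0324) and Col4a2 at -0.27 (p = 0.0316) in CA1. With the counts model of edgeR, 2 genes were called in CA1, Col1a1 and Col1a2, both higher in old impaired rats; the old impaired CA1 library of R2231 held 1198 and 1238 normalised reads of them, where the group medians were 60.6 and 45.1. DESeq2 called none there, and in CA3 and DG edgeR and DESeq2 called 0 as well. Between the old groups Col11a1 in CA1 read -0.18 ± 0.16 and Col4a5 0.17 ± 0.15, and p values that miss the threshold do not show that the groups were alike.

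The library of R9876, high in markers of meninges, was high in many collagen genes. In it Igf2 read 12935 normalised reads, where the other 33 CA3 libraries read 73.5, 157 and 988 (lowest, median, highest), and Slc6a20 and Slc13a4 read 5365 and 4824 beside highest values of 599 and 477. Of the 44 collagen genes 19 were above all other CA3 libraries, and the median ratio to the other libraries' median was 2.11 for collagen genes and 28.0 for leptomeninges markers. Vessel markers were raised in it too, with 9 of 11 endothelial markers, 5 of 7 mural markers and 12 of 16 basement membrane partners above all other CA3 libraries (median ratios 2.84, 2.95 and 3.12), and the parts of meninges and vessels in its collagen values cannot be told apart. The type I and III genes stood farthest apart, with 3211 normalised reads of Col1a1 (others 10.6, 53.4 and 244), 3740 of Col1a2 (14.3, 42.2 and 295) and 2889 of Col3a1 (11.6, 30.2 and 232). Col13a1, a transmembrane collagen, read 202 beside a highest value of 37.4, and Col8a1 read 74.0 beside 45.4. Col6a3 read 590.3 (5.99, 55.9 and 152), Col4a5 318 (39.3, 65.2 and 118) and Col4a6 180.0 (17.0, 26.9 and 69.1). Col11a1, Col2a1, Col25a1 and Col4a2 lay within the range of the other libraries, at 218, 9.77, 603 and 769. Thus of the 2 genes called with age Col4a5 was raised in this library and Col11a1 was not.

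Across libraries the mean log2 level of the 11 fibrillar genes was compared with that of the leptomeninges markers, none of which is a collagen. Pearson's r over the 34 libraries of a subfield was 0.768 for CA1, 0.850 for CA3 and 0.778 for DG (permutation p = 1e-05, the smallest that 100000 permutations can give, and adjusted p = 1e-05 over the 3 subfields). Spearman's rho was 0.367, 0.812 and 0.635 (permutation p = 0.0347, 1e-05 and 0.0001). Without the 2 libraries farthest from the median marker level r was 0.406 in CA1 (R2175 and R2231 left out), 0.792 in CA3 (R9862 and R9876) and 0.668 in DG, so the CA1 value rested in large part on 2 libraries. Without the libraries high in neighbouring tissue CA1 gave r = 0.469 (permutation p = 0.00997) and rho = 0.173 (p = 0.364), so by rank the relation did not hold there. In the rats below 9000 r was 0.849, 0.829 and 0.865 for CA1, CA3 and DG, and in those from 9000 it was 0.584, 0.919 and 0.831. On the Ion Proton it was 0.815, 0.756 and 0.490.

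**Figure D5:**
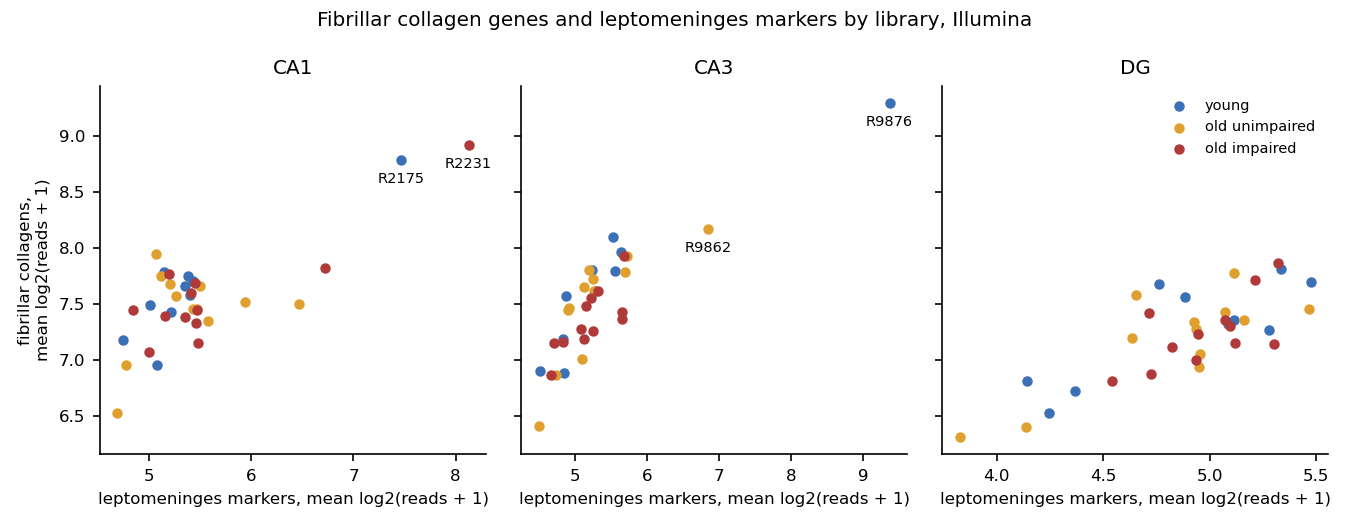
Mean log2(normalised reads + 1) of the 11 fibrillar collagen genes (y axis) against that of the leptomeninges markers (x axis) in each Illumina library, by subfield and group. R9876 in CA3 and R2231 and R2175 in CA1 lie far to the right, and the x axis differs between panels.

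Genes whose chains join in 1 molecule (or, for Col1a1 and Col3a1, lie in the same fibrils) were compared library by library within a subfield. Of 34 combinations of a chain pair and a subfield, 24 had a Pearson correlation with an adjusted permutation p under 0.05, all 24 positive, and 23 also passed by Spearman's rho. These correlations share the libraries' depth and tissue composition. Col1a1 and Col1a2, the chains of type I collagen, had r of 0.964 in CA1, 0.972 in CA3 and 0.877 in DG (rho 0.886, 0.921 and 0.719; permutation p = 1e-05 each), and without the 2 most distant libraries 0.884, 0.931 and 0.836. In the rats below 9000 it was 0.984, 0.882 and 0.908, and in those from 9000 0.935, 0.987 and 0.885. The Ion Proton gave 0.654, 0.882 and 0.784, with 0.451 for CA1 in the rats from 9000. Col4a1 and Col4a2 gave 0.822, 0.720 and 0.912 (rho 0.811, 0.697 and 0.920; permutation p = 1e-05 each), and 0.781, 0.651 and 0.896 without the 2 most distant libraries. In the rats below 9000 it was 0.899, 0.970 and 0.938, and in those from 9000 0.727, 0.309 and 0.872. On the Ion Proton the CA3 values of the series were 0.710 and 0.624. Col4a5 and Col4a6 gave 0.730, 0.782 and 0.601 (rho 0.636, 0.595 and 0.493; permutation p = 1e-05, 4e-05 and 0.00017), and 0.633, 0.542 and 0.515 without the 2 most distant libraries. By series they gave 0.768, 0.751 and 0.427 below 9000 and 0.683, 0.860 and 0.673 from 9000, where CA3 gave 0.532 without R9876. On the Ion Proton CA3 gave r = 0.465 (permutation p = 0.0058) and rho = 0.308 (p = 0.0755).

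The type VI chains, whose order across subfields differed, were compared in the same way. For Col6a1 and Col6a2, r was 0.551 in CA1, 0.799 in CA3 and 0.284 in DG (rho 0.474, 0.822 and 0.305; permutation p = 0.00068, 1e-05 and 0.104, adjusted 0.00136, 2.83e-05 and 0.127), and without the 2 most distant libraries 0.439, 0.744 and 0.476. Below 9000 it was 0.560, 0.932 and 0.510, and from 9000 0.361, 0.683 and -0.100. For Col6a1 and Col6a3, r was 0.487, 0.346 and 0.482 (rho 0.467, 0.334 and 0.564; permutation p = 0.00336, 0.0463 and 0.00391, adjusted 0.00601, 0.0629 and 0.00665, so that CA3 did not pass), and without the 2 most distant libraries 0.360, 0.250 and 0.638. Here the rats below 9000 gave 0.853, 0.695 and 0.782 and those from 9000 gave 0.052, 0.226 and 0.016, so the relation did not hold in the upper series. Without the libraries high in neighbouring tissue the CA1 values of both pairs no longer passed (adjusted permutation p = 0.0529 for Col6a1 and Col6a2, and 0.111 for Col6a1 and Col6a3). Col11a1 and Col11a2, of which only the former was called with age, gave 0.399, 0.262 and 0.285 (rho 0.441, 0.191 and 0.348; permutation p = 0.0188, 0.136 and 0.102), and 0.402, 0.117 and 0.354 without the 2 most distant libraries, with 0.478, 0.383 and 0.413 below 9000 and 0.344, 0.143 and -0.073 from 9000. No test compared the pairs with each other.

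The genes that make, bind and cut collagen were read from fixed lists. Of 26 tested genes for collagen synthesis and crosslinking, 10 were higher and 5 lower in CA1 than in DG, beside 26.9% of all genes called in either direction. Between CA3 and DG 6 were higher and 4 lower in CA3, beside 28.5%, and between CA1 and CA3 1, Adamts3 (-0.41 ± 0.12), was lower in CA1, beside 14.4%. The counts of the lists that follow stand beside the same shares. Pxdn, the peroxidase that crosslinks type IV collagen, was higher in DG (CA1 minus DG -1.10 ± 0.14, CA3 minus DG -1.56 ± 0.14), the same side as Col4a2. Lox, which crosslinks fibrils, read -1.72 ± 0.19 for CA3 minus DG, and the procollagen N-proteinase gene Adamts2 1.27 ± 0.23 for CA1 minus DG and 0.99 ± 0.23 for CA3 minus DG.

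Of 7 tested collagen receptors, 3 were higher and 2 lower in CA1 than in DG, and 4 higher and 2 lower in CA3 than in DG. Ddr2, a receptor kinase for fibrillar collagen, was higher in DG (-0.78 ± 0.13 from CA1 and -0.96 ± 0.13 from CA3), and Itga11, the alpha subunit of a type I collagen integrin, was lowest in CA3 (CA3 minus DG -1.84 ± 0.20, CA1 minus CA3 1.09 ± 0.20). Of 9 proteases and inhibitors, 4 were higher and 1 lower in CA1 than in DG, among them Mmp9 (1.31 ± 0.24) and Timp2 (0.65 ± 0.11), and again 4 and 1 in CA3 against DG, with Timp2 at 0.82 ± 0.11. None passed between CA1 and CA3. Of the 16 basement membrane partners 8 were higher and none was lower in CA3 than in DG.

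With age, limma called 1 gene of these lists, 1 of the 7 receptors tested in CA1, beside 0.851% of all genes there. Itga11 was lower in aged CA1 (-0.59, limma p = 0.00753), with -0.74 ± 0.24 in old unimpaired rats, and in DG it was lower in old impaired rats (-0.80 ± 0.27, p = 0.00704). Adamts3, which removes the N-propeptide of procollagens, was lower in CA1 of old impaired than of old unimpaired rats (-0.56 ± 0.13, limma p = 0.000173, adjusted p = 0.308) and than of young rats (-0.59 ± 0.14, p = 0.000322). No gene of the protease or basement membrane partner lists was called with age or between the maze groups.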

How the data were processed

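Gene values of 34 rats in 3 subfields were used from each of 3 tables. Per the labels and the study's methods, Illumina reads were trimmed with cutadapt 1.8.3, aligned to rn5 with STAR 2.5 and counted with featureCounts 1.4.4, and Ion Proton reads were aligned to rn5 with TopHat2 and Bowtie2. The labels and methods name different TruSeq kits, so strandedness is unknown and overlapping genes may share reads. The library type, aligner and counter of the WT table are not given in the sources used here. The deposited values are a signal: counts that the authors divided by DESeq2 size factors (the submitters' processing notes name DESeq2 1.16.1). Values above 0 were whole multiples of 1 step in 100% of cases (tolerance 0.01), which gave reads for depth and for the count models; 48 rows without a symbol stayed in the fits but could not be named.

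Genes with a mean of at least 10 were tested in R 4.3.3 by limma 3.58.1, whose eBayes step used a mean-variance trend, on log2(value + 1), and p-values were adjusted over all genes (Benjamini-Hochberg); the scale understates changes of low genes. Subfield calls needed an adjusted p under 0.05 in both poly-A tables, and age and maze calls p under 0.01 on the Illumina and a one-sided p under 0.05 on the Ion Proton. Alternatives were edgeR 4.0.16, DESeq2 1.42.0, a pseudocount of 0.1, no filter, the WT table, the rat as a block, the number series, and libraries left out. The rat pairs the subfields by design, although deviations of 2 subfields of 1 rat correlated weakly (median r 0.087, 0.189 and -0.032). The fits were tested on simulated data. The labels give separate rats as replicates. Standard errors of subfield differences are over libraries, with those of 1 rat taken as independent. The other standard errors and the SDs are over rats, and detection limits cover counting error only.

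Named were the genes called (at most 12 per comparison), Col11a1, Col4a5 and Col6a6 throughout, the member of each class with the most reads, genes whose call hinged on R9876, up to 3 called genes of each list and the highest 3 leptomeninges markers of R9876. Other genes that the text names, such as Col1a1, Col3a1, Col4a6, Col13a1 and Col20a1, were chosen after their values were seen. The members, lists and tests were chosen with earlier results of these data known. Col21a1, which the gene lists also held, was not analysed here. Promoter sequences are from RefSeq (GRCr8), a build other than that of the files.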

Additional observations from a re-analysis of the deposited data

Results flagged for a closer look

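In the young CA3 group (10 libraries), the highest library stood apart from the rest by more than Dixon's 95% limit for 10 values (a gap of 0.466 of the range) for 4 genes. Col18a1 read 1415 normalised reads in R9876 and 186 in the next library (gap 0.907 of the range). Col4a5 read 318 in R9876 and 118 in the next (gap 0.752), and Col6a6 read 65.6 and 31.96 (gap 0.635). Col11a1 read 442 in R2221 and 308 in the next (gap 0.511), and R2221 was high in choroid plexus markers. In all, 12 such sets of young libraries were examined (4 genes in 3 subfields), and chance alone flags about 1 in 20 groups. What set these libraries apart was not tested.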

How the results depend on the processing

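Counts of called collagen genes that moved by over 1.5 times were as follows. Without a filter on low values, CA1 and CA3 differed in 3 genes. For age in CA1 the count was 1 without the deeply sequenced rats, 1 with the WT table in place of the Ion Proton, 1 without the libraries high in neighbouring tissue, and 0 in either number series. With edgeR Col8a1 was called in CA1 in place of Col4a5. For age in CA3 the count was 6 with edgeR (Col1a1, Col1a2, Col3a1 and Col4a6 added), 1 without R9876 with limma, edgeR or DESeq2, and 0 without the libraries high in neighbouring tissue. In the rats from 9000 it was 1, and this gene was Col25a1, not Col11a1 or Col4a5. In the rats below 9000 Col20a1 was called in CA3 in place of Col4a5. For age in DG the count was 4 without the deeply sequenced rats (Col18a1 and Col3a1 added), 0 in the rats below 9000 and 1 in those from 9000. With edgeR, 2 genes were called between the maze groups in CA1, 4 for old unimpaired rats in CA3, 2 for old impaired rats in CA1 and 3 in CA3 (1 without R9876). For old unimpaired rats in CA3 the count was 0 without the libraries high in neighbouring tissue. Leaving out 1 library gave 0 to 2 genes for age in CA1 and CA3, 1 to 3 in DG and 0 to 1 between the maze groups in CA1. With the rat as a replicate block, 6, 14 and 12 genes were called between CA1 and CA3, CA1 and DG, and CA3 and DG, and no call was lost to the block. Depth limits the genes under a mean of 10. The removal of libraries high in neighbouring tissue, the fits within a number series, and edgeR and DESeq2 without R9876 were chosen after seeing the data. The causes were not tested.

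Directions turned, on the log2 scale, in the following cases. Between CA1 and CA3, Col12a1 was 0.057 below 9000, and Col4a5 was 0.045 without R9876, 0.11 without disagreeing libraries and 0.089 below 9000. Between CA1 and DG, Col6a6 was 0.035 from 9000, and between CA3 and DG Col5a1 was -0.42 below 9000, and Col6a6 0.14 and Col9a3 -0.018 from 9000. With age in CA3, Col6a6 was 0.067 without R9876 (edgeR 0.15, DESeq2 0.16) and 0.14 without neighbouring tissue, and in DG -0.21 from 9000. Between the maze groups in CA3, Col11a1 was -0.053 without the deep rats and -0.061 below 9000, Col4a5 0.0085 with the series covariate, 0.035 without neighbouring tissue and 0.15 below 9000, and Col6a6 -0.082 from 9000. In DG, Col4a5 was -0.017 below 9000, and Col6a6 -0.055 with the covariate, -0.013 without the deep rats, -0.049 below 9000 and -0.063 from 9000. Against young rats in CA3, Col6a6 was 0.051 without neighbouring tissue and 0.086 by edgeR without R9876 in the old unimpaired, and 0.22, 0.14 without R9876 and 0.21 by edgeR in the old impaired. Leaving out 1 library turned Col6a6 with age in CA3 (-0.19 to 0.067) and, between the maze groups, Col4a5 (-0.071 to 0.046) and Col6a6 (-0.020 to 0.25) in CA3 and Col6a6 (-0.071 to 0.10) in DG. None of the values that turned was called in the direction given here.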
